A study of Saccharomyces cerevisiae with 104 samples.

Results

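PAU, COS and YRF1 genes are repeated families that sit mostly near chromosome ends in the budding yeast Saccharomyces cerevisiae. They were picked by name alone, as every row called PAU, COS or YRF1 followed by a number. This gave 44 of the 7108 rows of each table, 24 PAU, 12 COS and 8 YRF1 genes, and the same rows in every table. The series comprised 100 ChIP-exo samples, not analysed here, and 4 RNA-seq libraries of total RNA. Its stated subject is how RNA polymerase II stalls under acute hydrogen peroxide stress. One shared protocol covers all samples, with growth at 25 °C and 0.3 mM H2O2 for 6 min followed by formaldehyde, and no strain, genotype or untreated RNA-seq library is named. The libraries, numbered 1 to 4 as names only, were therefore not put into groups. Each was described by itself, with no replicate error for any value and no test between libraries. Only an outlier criterion was applied over the 4 libraries, to flag values for a closer look. Where 4 values follow each other, they stand for libraries 1 to 4.

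The PAU genes encode seripauperins, small cell wall mannoproteins related to the TIR and DAN proteins. They are known for being repressed by oxygen and heme and for being induced in anaerobic fermentation. The COS genes encode membrane proteins that help cargo enter multivesicular bodies, where they supply the ubiquitin signal to partners that lack one. The YRF1 genes lie in the Y′ elements, repeats next to the telomere, and encode helicase-like proteins that are induced in survivors of telomerase loss. Genes near telomeres can be silenced by the Sir proteins, which are recruited through Rap1.

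Most members lay near chromosome ends. Measured from the outermost row of the chromosome, all 8 YRF1 genes, 11 of 12 COS genes and 19 of 24 PAU genes lay within 20 kb. The outermost row itself was a YRF1 gene in 7 cases and a COS gene in 3. The 5 other PAU genes lay farther in, PAU7 by 52.3 kb, PAU2 by 63.5 kb, PAU17 by 94.2 kb, PAU5 by 99.2 kb and PAU23 by 222 kb. COS111 (chromosome 2, 629168 to 631942) lay 179.5 kb in and shares only its name with the others. It was named for sensitivity to the antifungal ciclopirox olamine and is no relative of the subtelomeric COS genes. All 8 YRF1 genes and 21 of the PAU genes were transcribed toward the nearer end, against 2 of the COS genes (COS10 and COS111).

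The 4 libraries differed greatly in how much messenger RNA they held. Nuclear protein-coding genes took up 46.9, 12.2, 21.2 and 5.77% of TPM, an abundance per gene length, and the median such gene stood at 40.2, 7.5, 17.6 and 3.59 TPM. Its coverage, the mean read depth, was 12.8, 3.70, 8.17 and 2.26. A gene at a fixed relative level therefore has less TPM in libraries 3, 2 and 4 than in library 1. In such bulk samples, fewer cells that express a gene and less of its RNA per cell cannot be told apart. Below, the relative level is a gene's TPM as a percentage of the TPM of the median protein-coding gene in the same library. For a family, the share is its summed TPM as a percentage of all nuclear protein-coding TPM.

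The 3 families stood at different heights. PAU medians were far below those of both other families in every library, the YRF1 median was above the COS median in libraries 1 and 3, and the COS median was above the YRF1 median in libraries 2 and 4. The median PAU gene had a relative level of 4.73, 7.07, 3.35 and 1.22%, the median COS gene 44.3, 76.6, 49.5 and 81.7%, and the median YRF1 gene 102.3, 69.8, 86.6 and 51.9%. No PAU gene exceeded the median protein-coding gene in any library. COS genes did so in 0, 3, 0 and 3 cases and YRF1 genes in 4, 2, 4 and 1.

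**Figure D1:**
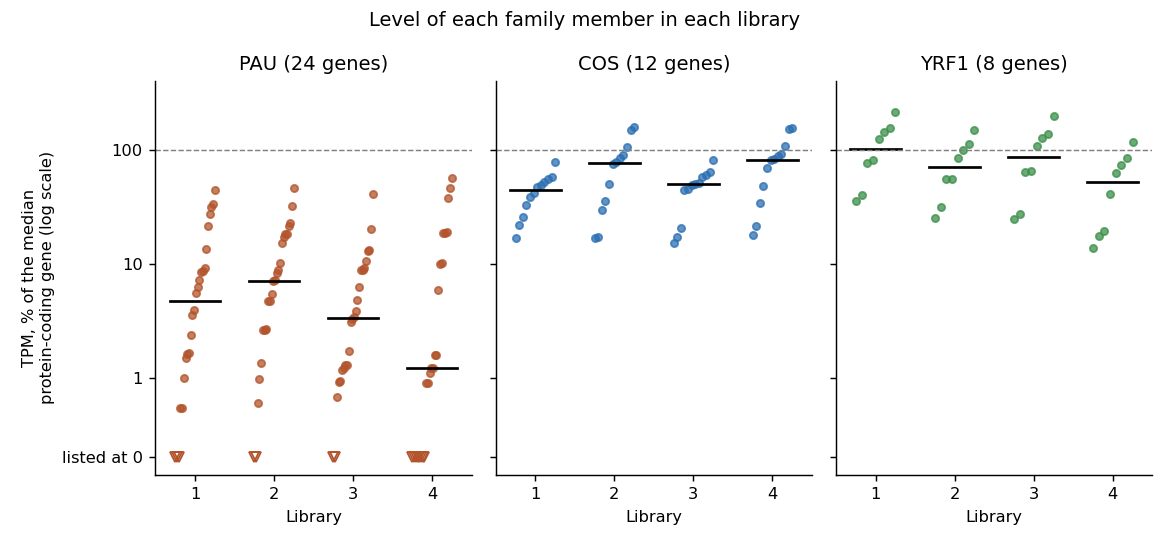
Relative level (TPM as a percentage of the median protein-coding gene, log scale) of every member in each library. Points are genes, open triangles are genes listed at 0, black bars are family medians, and the dashed line is the median gene. PAU genes reach at most 55.9%, and all of the rows at 0 belong to this family.

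In summed TPM, the PAU genes had 93.7, 19.3, 27.8 and 8.29, the COS genes 207.6, 66.6, 97.4 and 34, and the YRF1 genes 349.5, 45.8, 131.9 and 15.4. As shares these were 0.01999, 0.0158, 0.0131 and 0.0144% for PAU, 0.0443, 0.0545, 0.0459 and 0.0589% for COS, and 0.0745, 0.0375, 0.0622 and 0.0267% for YRF1. YRF1 held the largest share of the 3 in libraries 1 and 3, and COS in libraries 2 and 4. TPM is per gene length, and in aligned bases (coverage times span) the long YRF1 genes held the largest share in all 4 libraries, at 0.160 against 0.0536% for COS in library 2 and 0.119 against 0.0608% in library 4. The highest library share was 2.79 times the lowest for YRF1, 1.52 times for PAU and 1.33 times for COS.

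**Figure D2:**
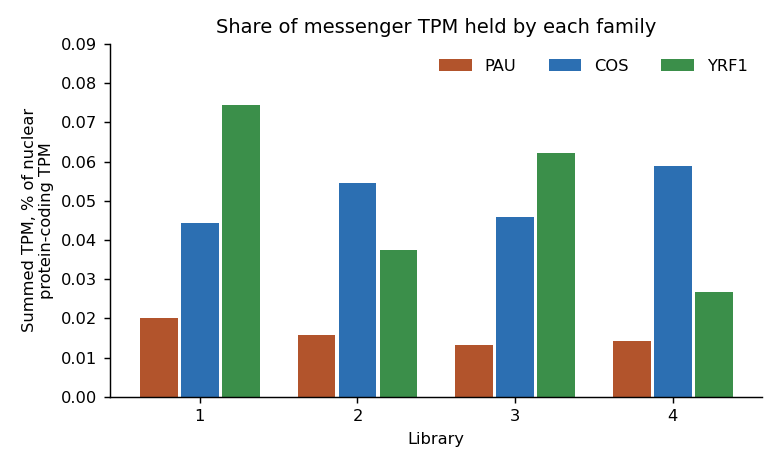
Summed TPM of each family as a percentage of all nuclear protein-coding TPM, by library. The YRF1 bar is the tallest in libraries 1 and 3 and the COS bar in libraries 2 and 4, while the PAU bar stays between 0.0131 and 0.01999%.

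Entries at 0 were found in the PAU family and in neither of the others. There were 3, 2, 2 and 8 PAU genes listed at 0, and the coverage column was 0 in the same number of rows. Among the 5989 nuclear protein-coding genes, 1.4, 1.99, 1.74 and 2.72% were listed at 0. In all, 10 PAU genes were at 0 in at least 1 library, 5 in a single library and 5 in 2, and none in all 4. The other 14 of the 24 were above 0 in every library, as were 5757 of the 5989 nuclear protein-coding genes. An entry of 0 can also be a failed estimate, so such a gene is only said to be listed at 0.

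Very few reads lay behind most PAU entries. Coverage times span gives the aligned bases of a gene, and the median PAU gene had 175, 95.3, 99.2 and 10 of them. Over all rows of the tables with a sum above 0 and under 200 bases, the most frequent sums were 36 bases in libraries 1 and 3, 40 bases in library 2 and 76 bases in library 4. Read length is not given in the sources used here, and 36 and 40 add up to 76. Of the 24 PAU genes, 11, 15, 16 and 19 had under 152 bases, or 2 times 76. The whole family had 10144, 3487, 4566 and 1759 aligned bases.

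**Figure D3:**
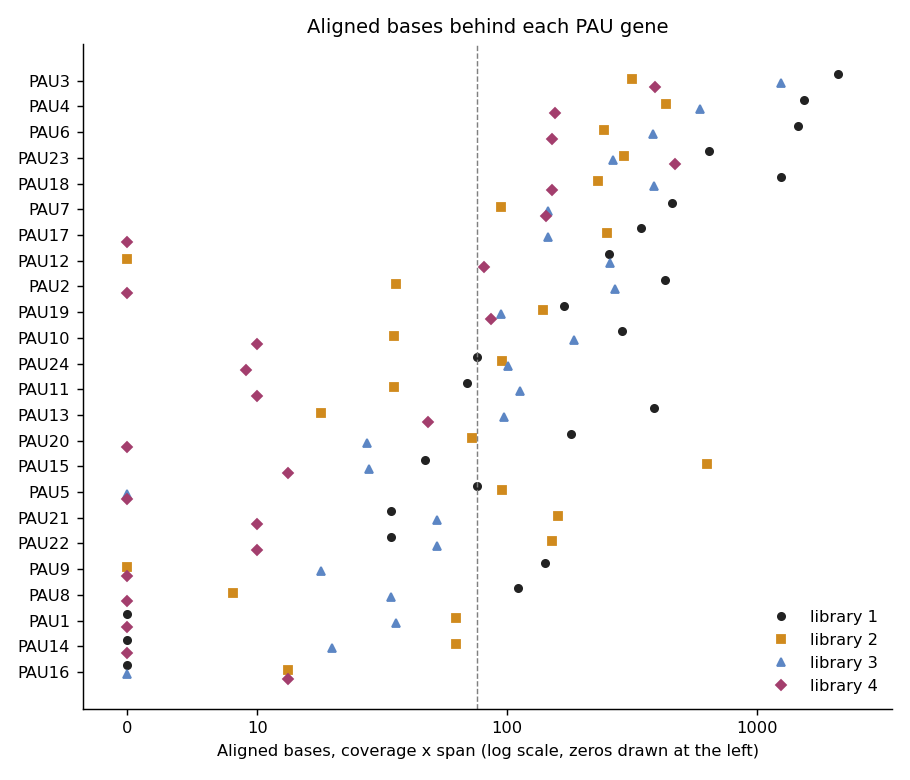
Aligned bases (coverage times span, log scale) behind each PAU gene in the 4 libraries, ordered by median TPM, with zeros drawn at the left edge and a dashed line at 76 bases. PAU3, PAU4, PAU6, PAU23, PAU18, PAU7 and PAU19 lie beyond the line in every library, and 8 library 4 points sit at 0.

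The 4 most abundant PAU genes of each library held 58.6, 47.3, 55 and 69% of the family's TPM. PAU3, near the right end of chromosome 3 (307801 to 308175), had the highest median. It stood at 17.8, 1.71, 7.18 and 1.67 TPM, with a coverage of 5.65, 0.844, 3.33 and 1.05. Relative to the median gene this was 44.2, 22.8, 40.8 and 46.4%, so library 2 was low and the other libraries lay close together. PAU4 (chromosome 12, 1062919 to 1063281) had 13.5, 2.41, 3.52 and 0.682 TPM and PAU6 (chromosome 14, 781918 to 782280) had 12.7, 1.37, 2.29 and 0.667 TPM. Both had their highest relative level in library 1, 33.5% for PAU4 and 31.7% for PAU6.

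PAU23 (chromosome 12, 222685 to 223059), the member farthest from a chromosome end, went its own way. It had 5.43, 1.59, 1.53 and 2.01 TPM, and so was the most abundant PAU gene in library 4. Its relative level there was 55.9%, against 13.5, 21.2 and 8.72% in libraries 1 to 3. It rested on 646, 295, 267 and 473 aligned bases, all whole numbers. PAU7 (chromosome 1, 176856 to 177023), a row of only 168 bases, likewise had its highest relative level, 37.7%, in library 4, against 21.3, 15.3 and 10.6%.

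Of the genes at 0 in some library, the 6 with the most TPM elsewhere are given in full. PAU2 had 3.71, 0.201, 1.61 and 0 TPM, and PAU17 had 2.88, 1.36, 0.839 and 0 TPM. PAU9, a row of 129 bases, had 3.46, 0, 0.301 and 0 TPM, and PAU12 had 2.23, 0, 1.54 and 0.355 TPM. All 4 had their highest TPM in library 1, where the median gene also had the most TPM. In relative level only PAU2 and PAU9 were highest there, at 9.23 and 8.60%. PAU17 was highest in library 2, at 18.1%, and PAU12 in library 4, at 9.89%. PAU20 had 1.57, 0.404, 0.163 and 0 TPM, and PAU8 had 0.959, 0.0446, 0.203 and 0 TPM, so these too were listed at 0 in library 4 only. PAU5, PAU1, PAU14 and PAU16 complete the 10. The lowest medians of the family belonged to PAU14, at 0, 0.350, 0.119 and 0 TPM, and PAU16, at 0, 0.0726, 0 and 0.0571 TPM. With fewer aligned bases in library 4 than in any other, a missing entry there cannot be told apart from too few reads.

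PAU15 (chromosome 9, 433929 to 434303), singled out after its values were seen, was far higher in library 2 than in the others. It had 0.395, 3.42, 0.161 and 0.0566 TPM, on 47, 633, 28 and 13.3 aligned bases. This made it the most abundant PAU gene of library 2, at 45.6% of the median gene, while it stood at 0.981, 0.914 and 1.58% in the others. PAU21 and PAU22 had a like shape, at 8.70 and 8.29% in library 2. Both stood at 0.541, 1.29 and 0.895% in libraries 1, 3 and 4. Over all 24 PAU genes, those listed at 0 included, the highest relative level fell in libraries 1 to 4 for 7, 9, 2 and 6. Over the protein-coding genes above 0 in every library the shares were 29, 27.1, 15.6 and 28.3%. The highest relative level of PAU15 was 49.9 times its lowest, the widest span among the 14 PAU genes above 0 in every library. Their median span was 4.34-fold, against 1.87-fold over the 5757 protein-coding genes above 0 in every library. Those genes were not matched to the PAU genes in level or aligned bases, so the spans are not compared on equal terms. The part that few reads play in the wider PAU spans was not tested.

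Members of repeated families can share reads, and the aligned bases were examined for fractions. Reads that are all counted whole give whole base sums. Where a sum holds a fraction, what made it was not tested, since the estimator is not given in the sources used here. Base sums were whole, within 0.02 bases, for 83, 84.1, 83.6 and 85% of the protein-coding genes above 0. Among PAU genes above 0 this held for 8 of 21, 11 of 22, 9 of 22 and 11 of 16. Among COS genes it held for 5 of 12 in every library, and among YRF1 genes for 1, 0, 0 and 0 of 8. Sums were whole in every library for PAU7, PAU19, PAU23, COS10, COS12 and COS111. YRF1-3, YRF1-6 and YRF1-7 span 5728 bases, which is no multiple of 3, so an intron may enter their sums.

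Some PAU genes of the same span were listed with the same coverage, and so with the same sum. PAU21 (chromosome 15, 1082718 to 1083212) and PAU22 (chromosome 16, 7933 to 8427), both 495 bases long, had equal sums of 34.2, 52.3 and 10 bases in libraries 1, 3 and 4, and 159.6 against 152 in library 2. PAU10 and PAU11 were equal in libraries 2 and 4, at 35.3 and 10 bases. In libraries 1 and 3 they were not, with 288 against 69.2 and 186 against 113.0 bases. PAU1 and PAU14 were equal in library 2, at 62.7 bases each, both at 0 in libraries 1 and 4, and unequal in library 3, at 35.8 and 20 bases. PAU6 and PAU18 had 152 bases each in library 4 only. In all, 4 PAU pairs of equal span, covering 8 genes, shared a sum above 0, within 0.02 bases, in at least 1 library. No COS or YRF1 pair of equal span did. How often other protein-coding genes of equal span share a sum was not computed, so these counts have no background. The 152 bases of PAU6 and PAU18 are 2 times 76, the most frequent small sum of library 4. How similar the copies are in sequence was not examined, since no sequence was used here.

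COS genes were above 0 in every library, from 6.80 to 31.1, 1.26 to 11.8, 2.67 to 14.3 and 0.635 to 5.53 TPM. Their median coverage was 5.66, 2.84, 4.04 and 1.84. COS3 (chromosome 13, 7244 to 8383) had 23.3, 11.8, 11.1 and 5.53 TPM and COS2 (chromosome 2, 810340 to 811479) had 22.4, 11.2, 10.4 and 5.44 TPM. Their relative levels ran side by side, at 58, 157, 63.1 and 154% for COS3 and 55.8, 149.7, 59.3 and 151% for COS2. Both were thus below the median gene in libraries 1 and 3 and above it in libraries 2 and 4. COS6 (chromosome 7, 1081584 to 1082729), the most abundant of the family in libraries 1 and 3, had 31.1, 7.94, 14.3 and 3.91 TPM, or 77.3, 106, 81.4 and 109%. COS7 (chromosome 4, 1802 to 2953) had 18.8, 5.85, 10.2 and 2.98 TPM, or 46.7, 78, 57.8 and 82.9%.

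The rest of the family fell on either side of this pattern. COS1, COS4, COS5 and COS8 also had higher relative levels in libraries 2 and 4 than in 1 and 3, with COS1 at 38.6, 89, 44.7 and 91.9% and COS4 at 16.9, 35.7, 15.2 and 33.9%. COS9 and COS10 did not, at 52.2, 50.2, 50.3 and 68.5% and at 32.5, 29.4, 44.4 and 47.8%. COS12 (chromosome 7, 2790 to 3932) was low and nearly level, with 10.2, 1.28, 3.61 and 0.772 TPM or 25.4, 17, 20.5 and 21.5%. COS111, the unrelated gene, had 8.79, 1.26, 3.01 and 0.635 TPM or 21.9, 16.7, 17.1 and 17.7%. The 3 COS rows with whole base sums in every library were COS10, COS12 and the unrelated COS111. All 3 were among those without the higher values in both libraries 2 and 4. COS9, also without them, and COS8, with them, both had sums that were whole in libraries 2 to 4 and not in library 1. The part that reads shared between copies play in the pattern was not tested.

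Counted over members, COS111 included, the highest relative level fell in library 1 for 2 COS genes and library 2 for 3. It fell in library 3 for 0 and library 4 for 7. Over the 5757 protein-coding genes the same shares were 29, 27.1, 15.6 and 28.3%. The lowest level fell in library 1 for 7 COS genes, library 2 for 4, library 3 for 1 and library 4 for 0, against 28.6, 25.3, 20.5 and 25.6% of those genes. At least 2-fold lay between the highest and the lowest library for 5 of 12 COS genes and 3 of 8 YRF1 genes, near the background of 44.3%.

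YRF1 genes all had their highest relative level in library 1 and their lowest in library 4. Over the 5757 protein-coding genes above 0 in every library, 29% were highest in library 1 and 25.6% were lowest in library 4. The share of genes with both was not computed. From library 2 to library 3, 6 of the YRF1 genes had higher values, while YRF1-6 and YRF1-7 had lower ones. The 8 genes are copies of one repeated element, so their rows do not count as separate observations. YRF1-4 (chromosome 12, 1067087 to 1071235) was the most abundant in each library, with 85.7, 11.2, 34.7 and 4.19 TPM and a coverage of 27.2, 5.55, 16.1 and 2.63. That was 213, 149.8, 197 and 117% of the median gene, above it throughout. YRF1-5, its neighbour to the right (1072508 to 1077898), had 57.7, 7.47, 22.4 and 2.63 TPM or 144, 99.5, 127 and 73.2%. YRF1-1 (chromosome 4, 1526321 to 1531711) had 62.7, 8.34, 24.1 and 3.02 TPM or 156, 111, 137 and 84.1%, and YRF1-8 (chromosome 15, 1085473 to 1090863) had 49.8, 6.29, 19.1 and 2.26 TPM or 124, 83.9, 108.5 and 62.8%.

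The 2 genes on left arms were the lowest by median. YRF1-6 (chromosome 14, 371 to 6098) had 16.1, 2.34, 4.82 and 0.697 TPM and YRF1-7 (chromosome 16, 280 to 6007) had 14.2, 1.89, 4.29 and 0.624 TPM. In relative level they stood at 40, 31.2, 27.4 and 19.4% and at 35.2, 25.2, 24.4 and 17.4%. YRF1-3 lay between, at 80.8, 55.7, 64.6 and 41%. The order of the 8 genes was identical in libraries 1, 2 and 3 and differed in library 4 through YRF1-2 (chromosome 5, 571480 to 576525), singled out after its values were seen. It had 30.9, 4.11, 11.1 and 0.496 TPM. Its relative level was 76.7, 54.8, 63.2 and 13.8%, which put it just under YRF1-3 in libraries 1 to 3 and last in library 4. The highest was 5.56 times the lowest, against 1.83 to 2.06 times for the other 7.

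**Figure D4:**
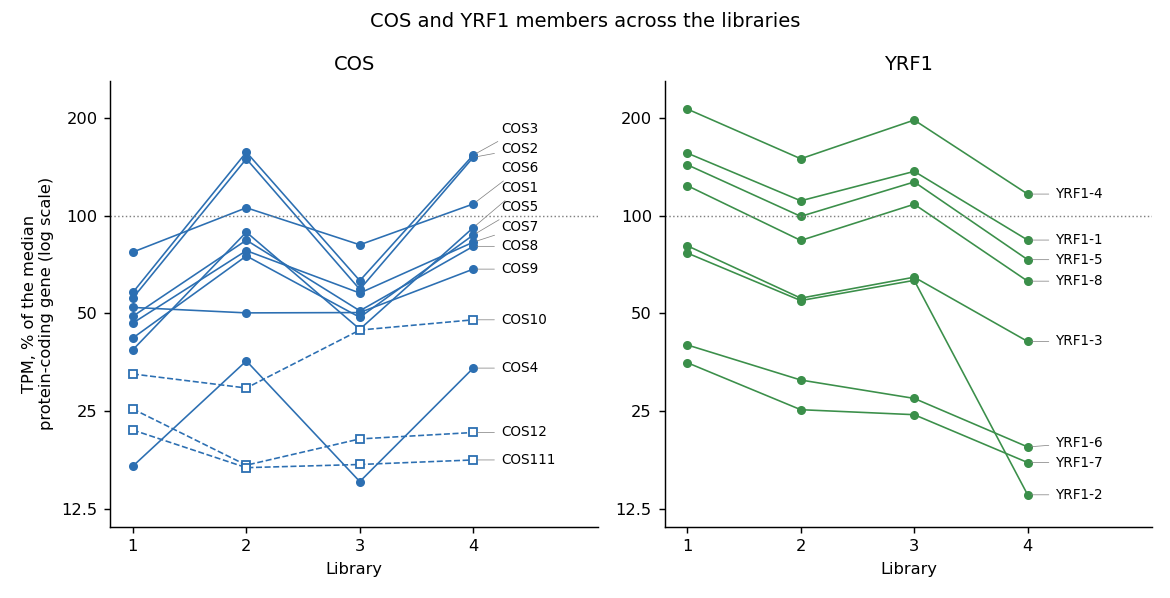
Relative level (log scale) of each COS gene (left) and each YRF1 gene (right) in the 4 libraries, with lines joining values of one gene and a dotted line at the median gene. Open squares with dashed lines are genes with whole base sums in every library. All YRF1 lines start at their highest point in library 1 and end at their lowest in library 4, with YRF1-2 dropping furthest, while COS lines differ in shape.

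The tables hold 12 opposite-strand reading frames that lie wholly inside YRF1 genes, and 11 of these were listed at 0 in each library. The exception, YLR466C-A inside YRF1-4, had 0.629, 0.000221, 0.0226 and 0.0175 TPM. BSC3, also on the opposite strand and lying partly in YRF1-4, had 0.515, 0.0790, 0.358 and 0.000925 TPM. For comparison, 27.3, 24.6, 25.3 and 28.5% of the 1097 rows with no RefSeq match were listed at 0. The sets are unlike, since the 1097 rows were not limited to frames inside another gene. Of the 12 frames, YER190C-B inside YRF1-2 does have a RefSeq match. How the authors' counting treated strand is not given in the sources used here, so reads of these rows and of the YRF1 genes may not have been told apart. On the same strand, YRF1-2 overlaps YER189W, at 17.3, 2.47, 6.54 and 0.662 TPM, and YRF1-4 overlaps YLR464W, at 21, 1.5, 7.06 and 0.922 TPM. PAU12 overlaps the opposite-strand YGR293C, at 3.01, 0, 1.23 and 0 TPM, and PAU24 overlaps YBR300C, at 1.1, 1.55, 6.91 and 0 TPM. No COS gene overlaps another row.

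Members were set beside their surroundings. The 217 other protein-coding genes within 20 kb of the outermost row had a median relative level of 32, 32.6, 27.8 and 20.7%, and 13, 16, 12 and 19 of them were listed at 0. The 98 of them less than 10 kb in had medians of 17.9, 23.3, 12.3 and 12.3%. The 119 at 10 to 20 kb had 43, 39.4, 38.7 and 35.8%. The 5273 lying at least 50 kb in had medians of 104.3 to 105%. The 11 COS genes near the ends, at 46.7, 78, 50.3 and 82.9%, and the 8 YRF1 genes thus had higher medians than the other genes near the ends, and the 19 PAU genes there, at 3.55, 5.39, 3.10 and 1.22%, had lower ones. The 5 PAU genes farther in had medians of 9.23, 15.3, 8.72 and 0%. These are descriptions of single libraries and were not tested. Members were not matched by distance to the other genes within 20 kb.

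Genes that act with the families were all above 0. The 6 TIR and DAN genes, the nearest relatives of PAU, had medians of 10.1, 30.8, 7.40 and 16% of the median gene. TIR1 had 5.105, 5.27, 2.26 and 1.88 TPM, or 12.7, 70.2, 12.8 and 52.4%, and TIR3 had 2.56, 3.61, 0.282 and 2.84 TPM, or 6.37, 48.1, 1.60 and 79%. The 5 other hypoxic genes had medians of 35.1, 96.9, 33.9 and 107.6%. Among them COX5B, the hypoxic form of a cytochrome oxidase subunit, had 78.3, 272, 95.9 and 183% and HEM13, of heme synthesis, 71.8, 115, 82 and 117%. The 10 regulators of hypoxic genes had medians of 121, 119, 94.8 and 125%. ROX1, the repressor that acts on heme-repressed genes in the presence of oxygen, had 59.8, 64.1, 35.3 and 40 TPM. This was 149, 855, 201 and 1113% of the median gene, so it was high in libraries 2 and 4. TUP1, its corepressor, had 167, 258, 133 and 243%. The PAU median and the TIR and DAN median were both highest in library 2. In library 4 the PAU median was the lowest of its 4 values, at 1.22%, while that of the TIR and DAN genes was the second highest. With a pseudocount of 1 TPM the PAU median of library 4 became the highest instead, at 22.7%, mostly through the added constant. Without it, the PAU median there was 0.0439 TPM and the median protein-coding gene stood at 3.59 TPM.

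For the telomere, the 10 genes of silencing and end-binding proteins had medians of 73.8, 69.9, 59.7 and 49.5%. RAP1, whose product binds telomeric repeats, had 74.8, 11.9, 27.9 and 3.85 TPM or 186, 159, 158 and 107%, and the histone deacetylase gene HDA1 had 188, 88.8, 166 and 84.3%. The 7 genes of telomerase and its capping partners had medians of 41.1, 37.1, 38.6 and 26.8%, with TLC1, the telomerase RNA, at 78.6, 299.5, 75.6 and 171% and EST3 at 65.8, 61.8, 82.8 and 121%. For the COS proteins, the 15 genes of the ESCRT sorting machinery and its ubiquitin ligase had medians of 84.3, 99.7, 80 and 96.9%. RSP5, the ligase, had 528, 324, 389 and 289%, and VPS4, the ATPase that recycles ESCRT, 285, 232, 375 and 232%. The 5 genes of the PRM and MST group, membrane proteins related to COS, had medians of 62.4, 63.1, 59.7 and 38.7%, led by UIP3 at 115, 189.8, 117 and 214% and PRM8 at 94.7, 105.1, 70.3 and 132%.

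Across the 4 libraries, the protein-coding genes with the profile nearest to each family's sum were looked up among 5596 candidates. Nearness was the Euclidean distance of log2 relative levels, each centred on its own mean. For PAU these were SFP1, NPR1 and PDR12, at distances of 0.0515, 0.0964 and 0.112. For COS they were RPB7, PUB1 and HMS1, at 0.0201, 0.0418 and 0.0505, with RPB7 at 141, 245, 151 and 256% of the median gene. For YRF1 they were MAG2, VIP1 and PFF1, at 0.0196, 0.0771 and 0.0779, with MAG2 at 157, 110.1, 134 and 76.2%. With 4 points per profile, close matches are found for many shapes.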

How the data were processed

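RNA-seq of 4 libraries was used. The authors deposited for each a table of 7108 genes with coverage (a signal, mean read depth), FPKM and TPM, per the file headers. TPM sums to 1000000 over all rows, ribosomal RNA included. Genome build sacCer3, with BWA, Picard and SAMtools, is named in the submitters' processing notes for both assays together. The RNA-seq aligner, estimator and strandedness are not given in the sources used here. Gene names came from the tables, of which those of libraries 1 and 2 hold 2 names as calendar dates, neither a member. RefSeq matched 6011 rows, 5997 with equal starts, among them all 44 members, and gave the protein-coding class.

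Levels were divided by the median nuclear protein-coding gene without a pseudocount, and no member was filtered out. Coverage times span summed to 302.3, 218, 236 and 189.6 megabases. No read counts were used, so depth in reads is unknown and no interval is given. Members, lists and measures were chosen with earlier results of these data known. Named in full were the 4 members of highest and 2 of lowest median TPM per family, up to 6 members at 0 in part of the libraries, the 2 top genes of each list and the 3 nearest profiles. The code for the measures was checked on altered copies of these data, with member levels multiplied by known factors. Such a check returns the factor by construction. It covers the arithmetic only and says nothing about noise, few reads or shared reads. Python 3.11.15, numpy 2.4.6, pandas 2.3.3 and matplotlib 3.10.9 were used.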

Additional observations from a re-analysis of the deposited data

Results flagged for a closer look

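Over the 4 libraries, 50 series of relative levels, family shares and family medians were examined, and 5 had 1 library far from the other 3 (a gap, as a share of the range, above Dixon's critical value). Chance alone marks about 1 in 20. COS9 stood at 68.5% of the median gene in library 4. PAU15 stood at 45.6% in library 2, PAU21 at 8.70%, PAU22 at 8.29% and PAU14 at 4.66%, each the highest value of its gene. PAU21 and PAU22 shared their values in the other libraries and are not separate cases. The PAU14 value rested on 62.7 aligned bases, the same sum as for PAU1 in that library, and PAU14 was listed at 0 in libraries 1 and 4.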

How the results depend on the processing

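Of 217 values under alternative settings, 168 stayed within 1 SD over the libraries, or within 1.5 times for counts and ratios. Part of the 168 could not move and says nothing about stability. The 27 values from FPKM, which is proportional to TPM within a library, and the 12 from coverage at 0 repeat the main ones. So do the COS values without overlapping members, since no COS gene overlaps another row. The order of libraries or families turned in some of the 217. With all rows as the denominator, shares followed the messenger content of the libraries by construction. They were 0.00937, 0.00193, 0.00278 and 0.000829% for PAU, 0.0208, 0.00666, 0.00974 and 0.00340% for COS and 0.0350, 0.00458, 0.0132 and 0.00154% for YRF1, with highest-to-lowest ratios of 11.3, 6.11 and 22.7. Weighted by length (coverage times span), PAU held 0.00437, 0.00482, 0.00333 and 0.00424%, COS 0.0347, 0.0536, 0.0396 and 0.0608% and YRF1 0.245, 0.160, 0.227 and 0.119%, so YRF1 led in all 4 libraries and the PAU share was highest in library 2. PAU genes under 0.1 TPM numbered 4 in library 2 and 15 in library 4. Under 1 TPM there were 10, 16, 15 and 21 PAU genes, and in library 4 also 2 COS and 3 YRF1 genes. A pseudocount raised the PAU median, to 3.89% in library 4 with 0.1, to 7.04, 18, 8.54 and 22.7% with 1, and to 15.3, 44.2, 24.7 and 58.7% with 5. With 1 and with 5, library 4 went from the lowest to the highest PAU median, mostly by construction. Both constants were large beside the PAU median of 0.0439 TPM there, and the median gene stood at only 3.59 TPM. With 5 the YRF1 median of library 4 was 79.9%. With the median gene taken among genes of at least 10 TPM, the PAU median was 4.30% in library 2, the COS median 46.6, 30.2 and 48.9% in libraries 2 to 4, and the YRF1 median 61.8, 42.4 and 52.9% in libraries 1 to 3. Chosen after seeing the data were the omission of COS111, PAU15 or YRF1-2 and the summing of equal PAU copies. Without YRF1-2 the YRF1 median of library 3 was 108.5%. With each library left out in turn, the highest-to-lowest ratio was 1.20 to 1.52 for PAU, 1.23 to 1.33 for COS and 1.99 to 2.79 for YRF1. Summing members with identical proteins was not run, and every YRF1 gene overlaps another row, so no YRF1 value without such members exists. No paired analysis was possible because the labels give no groups. Few reads limit single PAU genes.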
